A study of Mus musculus with 10 samples.

Results

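A set of 9 known targets of the transcription factor STAT3 that act in growth, survival and adhesion were followed in ribosome-bound RNA of the mouse ventral tegmental area. They were taken by name from published knowledge of STAT3, and all 9 of 9 were found by gene identifier among the 56691 genes of the deposited count table. The choice was made with earlier results of these data known. They are the survival genes Mcl1, Bcl2l1 and Bcl2, the growth genes Myc, Pim1 and Ccnd1, Vegfa and Hif1a of the oxygen and vessel response, and the adhesion gene Icam1. The tissue came from male C57BL/6 mice, labelled WT, with 5 control libraries (labelled Normal) and 5 libraries from mice held in acute restraint for 30 min. In both groups the dopaminergic neurons carried a construct labelled NBL10-HA, through which RNA on their ribosomes was enriched. The age of the mice and the promoter that drives the construct are not given in the sources used here. The labels do not say that each library is a separate mouse, so p-values measure only the spread between these libraries, which may be technical.

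STAT3 is activated by cytokine receptors that share the gp130 chain, through Janus kinases that phosphorylate it. It then moves to the nucleus and binds palindromic sites in the promoters of its targets. Its targets include genes that block the mitochondrial route of cell death, genes that drive entry into the cell cycle, and genes for vessel growth and for the binding of leukocytes. In brain tissue STAT3 signalling is best known in reactive astrocytes and microglia, and it also acts in neurons.

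The libraries held 56082358 to 86584968 counts. Levels are given as CPM, read counts scaled to a common library size with the TMM factors of edgeR, with ± SD over the 5 libraries of a group, and log2 fold changes with ± SE. All 10 dopamine neuron markers checked were detected, among them Th, the dopamine synthesis gene (411 ± 78.6 CPM in controls, 477 ± 65.3 CPM with restraint). Their summed level ran from 1899 to 2599 CPM among controls and from 2115 to 2912 CPM among restraint libraries. At an unadjusted p under 0.05 with edgeR, 5 of the 10 were higher (Nr4a2, Pitx3, En1, Foxa2 and Ret) and 0 lower. Th was not among these 5 (log2 0.21 ± 0.12), and Slc6a3 (-0.03 ± 0.16) and Ddc (-0.05 ± 0.12) had negative estimates. Over all 18440 genes tested, 5.64% were higher and 6.04% lower at that level, and these shares stand beside each list count below. Astrocyte markers, 8 in number, summed to 3746 to 4294 CPM in controls and 4261 to 5349 CPM after restraint. At that level 2 were higher (Gfap and Agt) and 0 lower. Gfap, which is also in the list of other STAT3 targets below, was the largest part of this sum, at 1919 ± 121 and 2471 ± 316 CPM. Of the 8 astrocyte markers 6 had positive estimates, and Aldh1l1 (-0.07 ± 0.08) and S100b (-0.01 ± 0.11) had negative ones. Of 7 oligodendrocyte markers 3 were higher. Among mural, oligodendrocyte precursor, GABA neuron, glutamate neuron and blood markers 1 mural marker was higher and 0 of the others reached that level. The 3 GABA neuron markers summed to 866 to 1224 CPM in controls and 901 to 1261 CPM after restraint. The 3 glutamate neuron markers summed to 411 to 441.5 and 355 to 481 CPM, and the oligodendrocyte markers to 1321 to 1640 and 1310 to 1810 CPM. RNA of other cells was thus present, and in such mixed RNA fewer cells of a type and less RNA per cell cannot be told apart. The part of these shifts in the levels of the 9 targets was not tested. Restraint 1 lay away from the other libraries in a principal component analysis, with a score of 92.1 on the leading component against -19.2 to 4.08 for the other 9. Without it the log2 fold change was 0.09 for Bcl2, 0.08 for Mcl1, 0.18 for Bcl2l1 and 0.22 for Vegfa, and no target passed the edgeR test after adjustment.

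No STAT3 target of the 9 passed the test for a difference between restraint and control. With the quasi-likelihood test of edgeR and Benjamini-Hochberg adjustment over 18440 genes, 0 of the 9 were higher and 0 lower at the 0.05 level, where 0.00542% and 0.0163% of all genes were. At an unadjusted p under 0.05 the counts were again 0 higher and 0 lower, where 5.64% and 6.04% of all genes were. DESeq2 also called 0 higher and 0 lower, against 0.754% and 1.04% of all genes. For none of the 9 did the 2 groups of libraries separate. Of all genes, 1.25% had every restraint library above every control and 1.36% had every one below. With shares this low, 0 of 9 does not set the targets apart from other genes. The median log2 fold change of the 9 was 0.12, with 6 of 9 positive (7 with RLE normalization, through Hif1a), beside a median of 0.00 and 49.6% positive over all genes tested. Estimates ran from -0.14 for Pim1 to 0.30 for Icam1, with standard errors of 0.08 to 0.16.

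**Figure D1:**
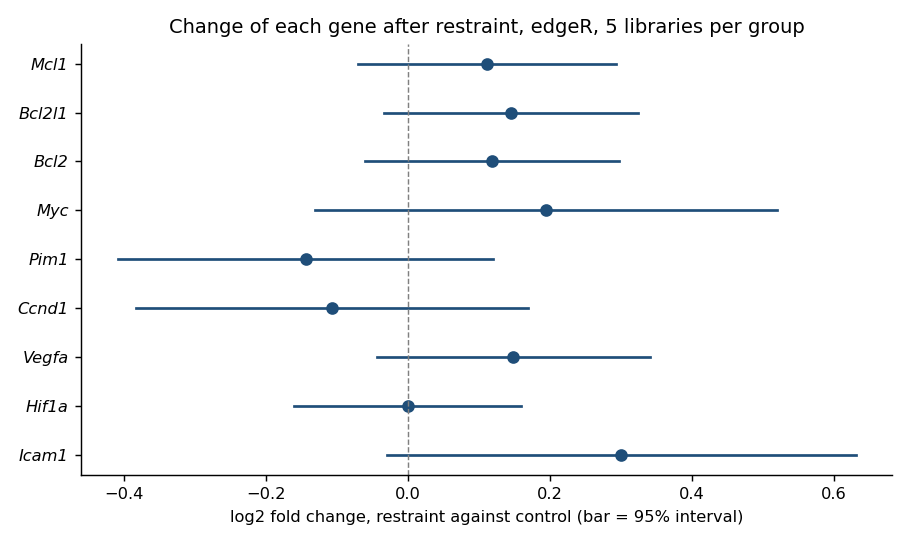
Log2 fold change (x axis) of each of the 9 genes (y axis) after restraint, with 5 libraries per group. Points are edgeR estimates and bars their 95% intervals. Each bar crosses 0, and the estimates run from -0.14 for Pim1 to 0.30 for Icam1.

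Levels between genes were compared per kilobase of exon, as CPM per kilobase. Bcl2l1 and Mcl1 stood at the top of the 9, with 36.0 ± 1.39 and 32.6 ± 2.93 CPM per kilobase in controls (SD, n = 5). Bcl2l1 was the higher of this pair in 7 of 10 libraries, and their ranges overlapped. Hif1a followed at 22.9 ± 1.99, Vegfa at 9.94 ± 0.77 and Bcl2 at 5.48 ± 0.39 CPM per kilobase, and the ranges of these neighbours did not overlap in the 10 libraries. Ccnd1, at 3.14 ± 0.51, and Pim1, at 2.98 ± 0.41 CPM per kilobase, could not be ordered, since Ccnd1 was the higher in 6 of 10 libraries. Myc stood at 1.43 ± 0.22 and Icam1, the lowest, at 0.908 ± 0.108 CPM per kilobase. Myc was above Icam1 in 10 of 10 libraries, although their ranges overlapped when control and restraint libraries were pooled. In controls 91.6% of all genes tested had a lower level per kilobase than Bcl2l1, and 32.6% had a lower level than Icam1. The order of the 9 in each of the 10 libraries differed only within the pairs Bcl2l1 with Mcl1 and Ccnd1 with Pim1.

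**Figure D2:**
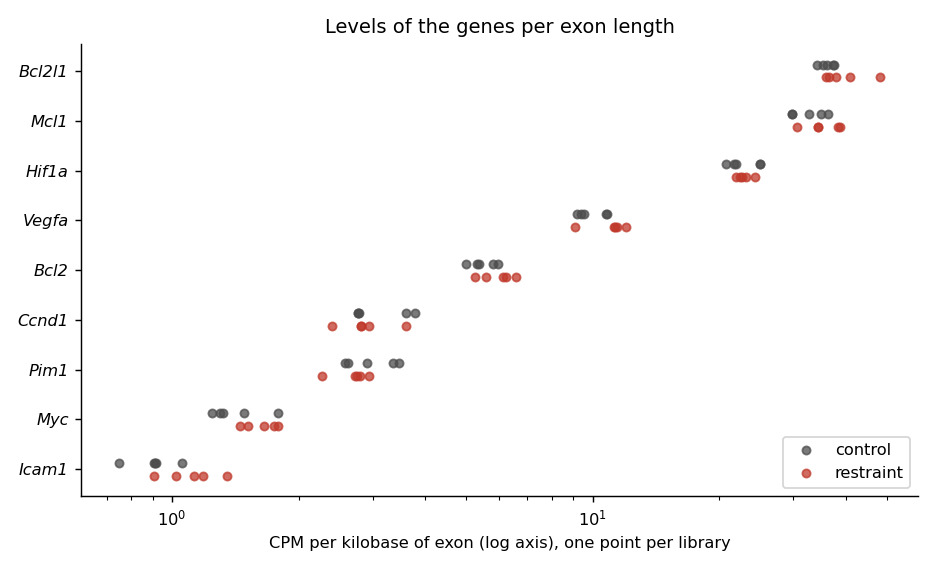
Level of each gene in CPM per kilobase of exon (x axis, log scale), 1 point per library, control in grey and restraint in red. Bcl2l1 and Mcl1 overlap at the top and Ccnd1 and Pim1 overlap in the lower part, while Hif1a, Vegfa and Bcl2 each occupy a range of their own.

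Bcl2l1 and Mcl1, the most abundant of the 9, and Bcl2, the fifth in level per kilobase, are survival genes of the BCL-2 family, and each had a positive estimate that did not pass. Their proteins hold BAX and BAK in check at the mitochondrial membrane and so restrain the release of cytochrome c. Mcl1 encodes a member of this family with a rapid turnover (ENSMUSG00000038612.17, chromosome 3, 95566099 to 95570487, plus strand, GRCm39). Its levels were 124, 102, 119, 112 and 102 CPM in controls 1 to 5 and 132, 131, 105, 117 and 117 CPM in restraint 1 to 5. Restraint 1 and 2 were above every control, and restraint 3 was above 2 of the 5 controls. For Mcl1 the log2 fold change was 0.11 ± 0.09 (SE), with a 95% interval of -0.07 to 0.29 (edgeR adjusted p = 0.674; exact two-sided permutation p = 0.238). Without control 5 the estimate for Mcl1 was 0.07, and without restraint 2 it was also 0.07.

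Bcl2l1, which encodes BCL-xL, the main anti-apoptotic BCL-2 protein of mature neurons (ENSMUSG00000007659.19, chromosome 2, 152622588 to 152673648, minus strand), had 162, 166, 156.5, 172 and 171 CPM in controls. After restraint it had 167, 187, 173, 164 and 221 CPM. The controls lay close together, with an SD of 6.35 CPM against 23.3 CPM after restraint, and restraint 5 was the highest of all libraries. Its log2 fold change was 0.15 ± 0.08, with an interval of -0.03 to 0.32 (edgeR adjusted p = 0.546; exact permutation p = 0.111). Without restraint 5 the log2 fold change was 0.06, and without restraint 4 it was 0.19.

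Bcl2, the founding gene of the family (ENSMUSG00000057329.8, chromosome 1, 106465908 to 106642004, minus strand), had 53.0, 48.5, 45.8, 54.7 and 49.1 CPM in controls and 60.2, 48.2, 51.2, 56.1 and 56.9 CPM after restraint. Restraint 1, 4 and 5 were above every control and restraint 2 was below 4 of the 5 controls. The estimate for Bcl2 was 0.12 ± 0.08, with an interval of -0.06 to 0.30 (edgeR adjusted p = 0.641; exact permutation p = 0.159).

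Among the 4 measured anti-apoptotic genes of the family, 3 of the 9 targets plus Bcl2l2, 0 had an unadjusted p under 0.05 in either direction. Bcl2l2, which encodes BCL-w, had 149 ± 19.4 and 143 ± 17.3 CPM in the 2 groups. The 4 other genes of this list, Bcl2a1a, Bcl2a1b, Bcl2a1d and Bcl2l10, had 6 to 32 counts each over all libraries and were not tested. The pore-forming genes Bax (-0.09 ± 0.13), Bak1 (0.17 ± 0.10) and Bok (-0.25 ± 0.12) gave 0 of 3 at an unadjusted p under 0.05. Of 7 measured BH3-only genes, whose proteins switch the pore formers on or block the protectors, 1 was lower at an unadjusted p under 0.05. This was Bad, whose product binds BCL-xL and BCL-2, with 11.1 to 12.9 CPM in controls and 6.03 to 9.99 CPM after restraint, so that the groups did not overlap. Its log2 fold change of -0.45 ± 0.14 did not pass after adjustment over all genes (edgeR adjusted p = 0.197; DESeq2 adjusted p = 0.0545). Among 7 measured caspase inhibitors 1 was lower at an unadjusted p under 0.05, Xiap, with 85.0 ± 9.72 CPM in controls and 72.0 ± 8.35 CPM after restraint (edgeR adjusted p = 0.34).

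**Figure D3:**
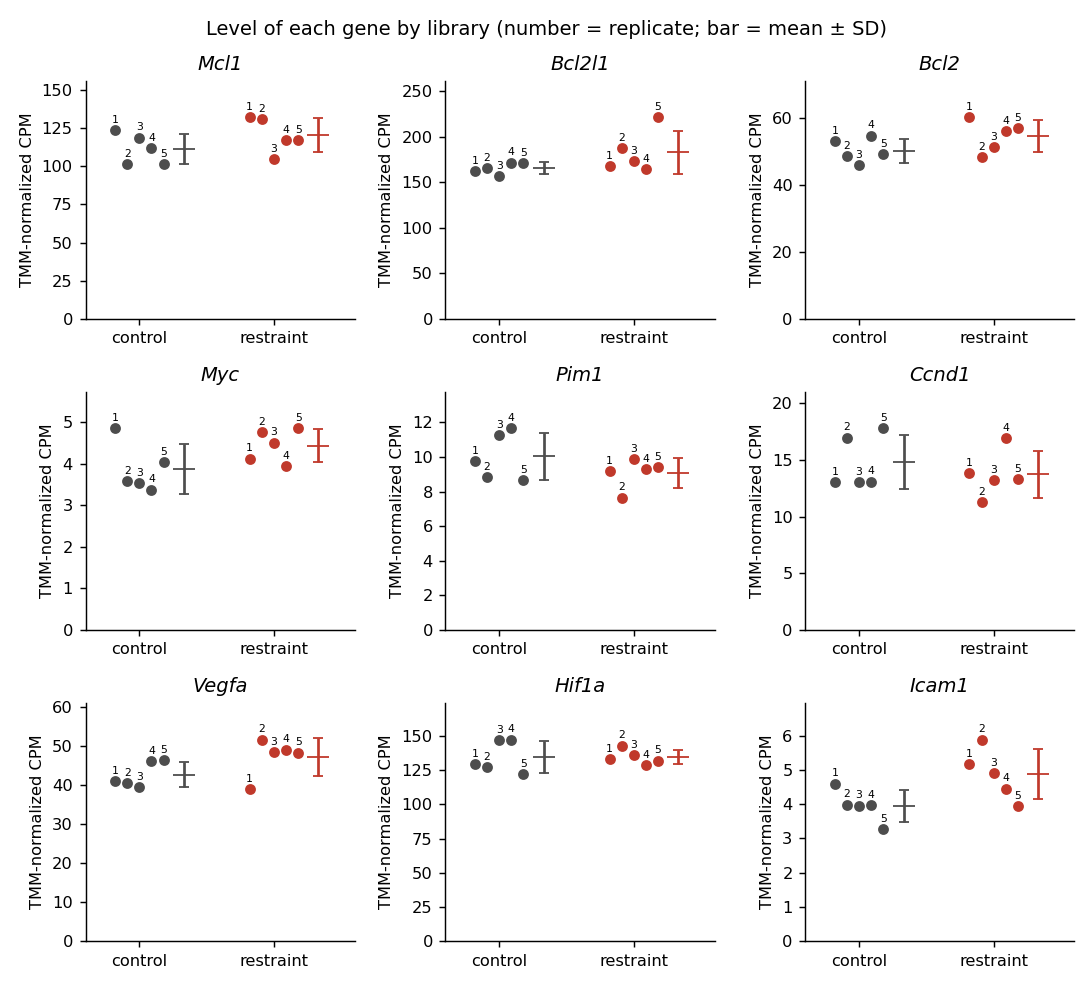
TMM-normalized CPM (y axis, from 0) of each of the 9 genes in every library, numbered by replicate, with the mean ± SD of the 5 libraries per group beside the points. Control and restraint libraries overlap in every panel. Restraint 5 is the highest of all libraries for Bcl2l1, and restraint 1 is the lowest for Vegfa.

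None of the growth genes Myc, Pim1 and Ccnd1 passed the test, and their estimates pointed in different directions. In controls 52.0% of all genes tested had a lower level per kilobase than Ccnd1, 50.9% a lower level than Pim1 and 38.9% a lower level than Myc. Myc encodes a transcription factor of growth and metabolism that is switched on early by many stimuli (ENSMUSG00000022346.18, chromosome 15, 61857240 to 61862223, plus strand). It had 4.86, 3.59, 3.54, 3.38 and 4.04 CPM in controls and 4.12, 4.76, 4.51, 3.94 and 4.86 CPM after restraint, from 232 to 416 counts per library. All 5 restraint libraries were above the control median, but control 1 was as high as the highest restraint library. The log2 fold change was 0.19 ± 0.15, with an interval of -0.13 to 0.52 (edgeR adjusted p = 0.687; exact permutation p = 0.119). Without control 1 it was 0.29 (edgeR adjusted p = 0.571).

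Pim1, a serine/threonine kinase gene whose product needs no activating partner and promotes survival (ENSMUSG00000024014.9, chromosome 17, 29709727 to 29715086, plus strand), had 9.76, 8.82, 11.3, 11.7 and 8.67 CPM in controls. After restraint it had 9.16, 7.64, 9.90, 9.28 and 9.43 CPM. Controls 3 and 4 were the highest of all libraries and restraint 2 was the lowest. The estimate for Pim1 was -0.14 ± 0.12, with an interval of -0.41 to 0.12 (edgeR adjusted p = 0.722; exact permutation p = 0.254). It was -0.09 without control 3, without control 4 and without restraint 2. Its relatives Pim2 (70.1 ± 6.87 and 72.9 ± 4.497 CPM) and Pim3 (38.6 ± 4.35 and 44.7 ± 6.76 CPM in controls and after restraint) were at 25.1 and 15.9 CPM per kilobase in controls, above the 2.98 of Pim1, and 0 of the 3 kinases had an unadjusted p under 0.05.

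Ccnd1, which encodes cyclin D1, the partner of CDK4 and CDK6 in early G1 (ENSMUSG00000070348.6, chromosome 7, 144483668 to 144493662, minus strand), had 13.1, 17.0, 13.02, 13.1 and 17.8 CPM in controls. It had 13.9, 11.3, 13.2, 17.0 and 13.3 CPM after restraint. Controls 2 and 5 and restraint 4 were high and the other 7 libraries were at 11.3 to 13.9 CPM, so the high values occurred in both groups. Its log2 fold change was -0.11 ± 0.13, with an interval of -0.38 to 0.17 (edgeR adjusted p = 0.82; exact permutation p = 0.556). Without control 2 or restraint 2 it was -0.05, without control 5 it was -0.04, and without restraint 4 it was -0.19. Of the exon bases of Ccnd1, 23.4% are shared with LTO1, a gene with 12967 counts, so its level is uncertain. Pim1, Bcl2, Hif1a and Icam1 share 14.5%, 6.09%, 8.11% and 11.7% of their exon bases with genes that had at most 137 counts over all libraries. What this sharing does to the levels of Pim1, Bcl2, Hif1a and Icam1 was not tested.

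In the MYC network, which regulates MYC by dimerization with MAX, 2 of 13 measured genes were higher and 2 lower at an unadjusted p under 0.05, and 0 passed after adjustment. Mxi1, a MAX partner that opposes MYC, had 54.1 ± 4.01 CPM in controls and 64.1 ± 9.65 CPM after restraint (edgeR adjusted p = 0.338). The other higher gene was Max itself, with 89.2 ± 4.10 and 100.5 ± 9.75 CPM (edgeR adjusted p = 0.416). Mlxip, a partner of MLX in glucose sensing, had 19.4 ± 2.49 and 15.8 ± 1.86 CPM (edgeR adjusted p = 0.299). Of 15 measured genes of the G1 phase 0 were higher and 1 was lower at an unadjusted p under 0.05. This was Cdkn2d, which encodes the CDK4 and CDK6 inhibitor p19, with 75.7 to 87.2 CPM in controls and 48.4, 58.3, 47.0, 45.7 and 78.0 CPM in restraint 1 to 5. Only restraint 5 reached the range of the controls. Its log2 fold change of -0.57 ± 0.13 did not pass with edgeR (adjusted p = 0.0893). It passed in 5 of the 22 alternatives: with DESeq2 (adjusted p = 0.00219), with limma-voom and quality weights (adjusted p = 0.0202), and with edgeR without the low-count filter (adjusted p = 6.69e-05), with the length trend removed (adjusted p = 0.0293) and without restraint 5 (adjusted p = 0.00251).

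Vegfa and Hif1a belong to the oxygen response, in which HIF-1α pairs with ARNT at the sequence ACGTG and switches on genes of glycolysis and vessel growth. HIF-1α is controlled mainly at the protein level, by prolyl hydroxylases and VHL. Vegfa encodes the vascular growth factor that acts through the receptors KDR and FLT1 (ENSMUSG00000023951.19, chromosome 17, 46327919 to 46343295, minus strand). It had 40.9, 40.3, 39.4, 46.0 and 46.3 CPM in controls and 38.8, 51.6, 48.4, 49.0 and 48.2 CPM after restraint. Restraint 2 to 5 were above every control, whereas restraint 1 was below every control. Vegfa had a log2 fold change of 0.15 ± 0.09, with an interval of -0.04 to 0.34 (edgeR adjusted p = 0.569; exact permutation p = 0.111). Without restraint 1, the library that stood apart over all genes, it was 0.22, which did not pass either (edgeR adjusted p = 0.315, unadjusted p = 0.0214).

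Hif1a (ENSMUSG00000021109.14, chromosome 12, 73948149 to 73994304, plus strand) had the smallest difference of the 9. It had 129, 127, 147, 148 and 122.5 CPM in controls and 133, 143, 136, 129 and 132 CPM after restraint. The restraint libraries fell inside the range of the controls, and the means were 135 ± 11.7 and 135 ± 5.36 CPM. Its log2 fold change was -0.0001 ± 0.08, with an interval of -0.16 to 0.16, which corresponds to 0.895 to 1.12 times the control level (edgeR adjusted p = 0.9998; exact permutation p = 0.952). The promoter window of Hif1a is shown because it holds the letters ACGTG that its own product recognizes. RefSeq gives the 250 bases before its start as chr12:73907617-73907866 (GRCm38.p6, plus strand), with each ACGTG on either strand in capitals.
Hif1a: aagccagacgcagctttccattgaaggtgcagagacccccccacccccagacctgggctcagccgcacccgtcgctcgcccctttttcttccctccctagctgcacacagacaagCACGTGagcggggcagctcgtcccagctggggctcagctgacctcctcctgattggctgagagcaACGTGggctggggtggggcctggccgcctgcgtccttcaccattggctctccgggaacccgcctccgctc
The first block begins 135 bases before the start and reads ACGTG on both strands, since CACGTG is a palindrome, and the other begins 70 bases before it. ACGTG was found on either strand in 16.6% of 32851 such windows, and among the targets also in 1 window each of Pim1 and Vegfa. For both genes this window belongs to a start downstream of another start of the gene, whose window held no ACGTG. A match of these letters is a description and not a binding site.

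Of the 10 measured VEGF ligands and receptors 2 were higher at an unadjusted p under 0.05 and 0 lower. Vegfb, a ligand of FLT1, had 60.8 ± 9.09 CPM in controls and 72.6 ± 7.79 CPM after restraint (edgeR adjusted p = 0.349). Flt1 had 1.70 ± 0.41 and 2.90 ± 1.20 CPM (edgeR adjusted p = 0.279). Of 10 HIF subunits and regulators 0 were higher and 2 lower at that level. Epas1, which encodes HIF-2α, had 90.0 ± 8.49 and 78.0 ± 2.82 CPM (edgeR adjusted p = 0.308), and Hif1an, whose product is an asparagine hydroxylase that blocks HIF activity, had 45.1 ± 6.41 and 38.7 ± 3.71 CPM (edgeR adjusted p = 0.416). Of 12 measured HIF targets 1 was higher and 2 lower. The lower ones were the glycolytic genes Pgk1, with 845 ± 78.0 and 653 ± 114 CPM (log2 -0.37 ± 0.10, edgeR adjusted p = 0.174, DESeq2 adjusted p = 0.0348), and Ldha, with 304 ± 32.2 and 256 ± 22.4 CPM (edgeR adjusted p = 0.269). The higher one, the collagen prolyl hydroxylase gene P4ha1, had 45.0 ± 4.81 and 53.0 ± 6.65 CPM (edgeR adjusted p = 0.361). After adjustment 0 genes of these 3 lists passed with edgeR under the filter on low counts used here. Pgk1 passed without that filter (edgeR adjusted p = 0.0289) and without restraint 5 (log2 -0.48, edgeR adjusted p = 0.0242).

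Icam1 had the largest estimate of the 9 and the lowest level. It encodes an adhesion molecule on endothelium and glia that binds the leukocyte integrin LFA-1 (ENSMUSG00000037405.9, chromosome 9, 20927281 to 20940113, plus strand). Its levels were 4.61, 3.99, 3.96, 3.97 and 3.27 CPM in controls and 5.18, 5.89, 4.91, 4.46 and 3.96 CPM after restraint, from 188 to 391 counts per library. Restraint 1, 2 and 3 were above every control, and restraint 4 and 5 lay among the controls. The log2 fold change was 0.30 ± 0.16, with an interval of -0.03 to 0.63 (edgeR adjusted p = 0.483, unadjusted p = 0.0717; exact permutation p = 0.0714). The smallest p that the exact permutation test can give with 5 against 5 libraries is 0.00794. Without restraint 5 the log2 fold change was 0.36 (unadjusted p = 0.0398, edgeR adjusted p = 0.347), and without restraint 2 it was 0.22 (edgeR adjusted p = 0.671).

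The promoter of Icam1 is shown because it was the 1 window with the STAT motif TTCNNNGAA among the 11 windows that RefSeq gives for 7 of the 9 targets. The table used has windows for all targets but Myc and Ccnd1. The motif is its own reverse complement. The 250 bases before the start lie at chr9:21015690-21015939 (GRCm38.p6, plus strand), with the motif in capitals.
Icam1: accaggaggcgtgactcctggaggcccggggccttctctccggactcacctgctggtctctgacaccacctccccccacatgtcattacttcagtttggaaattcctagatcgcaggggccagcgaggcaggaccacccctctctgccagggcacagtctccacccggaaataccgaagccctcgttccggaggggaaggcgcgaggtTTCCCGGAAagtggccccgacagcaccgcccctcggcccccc
It begins 42 bases before the start and overlaps none of the other motifs searched. TTCNNNGAA occurred in 7.02% of the 32851 windows. The other motifs were ACGTG, given above, the E-box CACGTG and the GC box, whose letters are GGGCGG. The E-box was found in 6.02% of all windows and in 1 window each of Hif1a and Pim1, for Pim1 the one with ACGTG. The GC box was found in 32.7% of all windows and in 6 windows of 5 targets, Mcl1, Bcl2, Pim1, Vegfa and Icam1. Both strands were searched for each motif. TTCNNNGAA was not found in the 250-base windows of Mcl1, Bcl2l1, Bcl2, Pim1, Vegfa and Hif1a.

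Of 8 measured genes of the ICAM family and of leukocyte adhesion, 8 had positive estimates, where 49.6% of all genes tested did. At an unadjusted p under 0.05, 2 were higher, where 5.64% of all genes were, with 0 after adjustment (edgeR). When control 2, 4 or 5 or restraint 1 was left out, 7 of the 8 were positive. Itgal, Itgam and Itgb2 were low, at 0.199, 0.459 and 1.06 CPM in controls. Vcam1, the other main endothelial and glial ligand for leukocyte integrins, had 46.1 ± 7.25 CPM in controls and 58.9 ± 5.41 CPM after restraint (edgeR adjusted p = 0.198). Pecam1, a junction protein gene of endothelium, had 0.884 ± 0.365 and 1.596 ± 0.468 CPM (edgeR adjusted p = 0.283). Icam2, Icam4, Sele and Selp had 0 to 34 counts each over all libraries and were not tested. Markers of endothelium had 8 of 8 positive estimates, beside the same 49.6% over all genes tested. Of these markers 2 had an unadjusted p under 0.05 (Pecam1 and Flt1) and 0 passed after adjustment with edgeR. Pecam1 is in both the adhesion list and this one. Their summed level was 8.605 to 12.6 CPM in controls and 9.665 to 15.3 CPM after restraint, so that the groups overlapped, and none was at 0 counts. Microglia markers had 4 of 8 positive, with sums of 22.2 to 35.0 and 22.3 to 30.4 CPM. The part of endothelial RNA in the levels of Icam1, Vcam1 and Pecam1 was not tested.

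The profile of Icam1 over the 10 libraries was most like those of Nol8, S100a9 and Pum2, with root mean square differences of 0.33, 0.372 and 0.376 between standardized log2 CPM values, where the median over all genes tested was 1.36. S100a9 encodes a calcium-binding protein of neutrophils and had 0.105 to 0.178 CPM in controls and 0.152 to 0.573 CPM after restraint. The genes most like Bcl2l1 were Ppil1, Med9 and Lap3, at 0.412, 0.452 and 0.485. Each of these 6 genes had an edgeR adjusted p of 0.399 or more.

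The genes upstream of the 9 targets were read next. Of 12 measured genes of STAT3 activation 1 was higher and 0 lower at an unadjusted p under 0.05. This was Osmr, the oncostatin M receptor gene, with 3.08 to 7.23 CPM in controls and 6.12 to 10.2 CPM after restraint (log2 0.65 ± 0.20, edgeR adjusted p = 0.215, and 0.0432 without the low-count filter). Il6st, which encodes the shared chain gp130, stood at 74.2 ± 8.002 and 83.9 ± 9.78 CPM (edgeR adjusted p = 0.506). Of 12 genes that restrain STAT3, 1 was higher and 1 lower. The lower one was Pias3, whose product binds activated STAT3 and blocks its action on DNA, with 18.6 to 21.4 CPM in controls and 19.6, 14.1, 12.9, 15.6 and 12.6 CPM in restraint 1 to 5. Restraint 1 was the library that overlapped with the controls (log2 -0.40 ± 0.12, edgeR adjusted p = 0.19). The higher one, the phosphatase gene Ptpn2, had 16.2 ± 2.56 and 20.4 ± 2.86 CPM (edgeR adjusted p = 0.302).

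A list of other STAT3 targets was read beside the 9. It holds acute-phase, glial and early-response genes, and also Fgf2, Mmp2, Mmp9, Twist1 and Birc5. This list was chosen with earlier results of these libraries known and is not independent evidence of its direction. Of its 15 measured genes 7 were higher and 0 lower at an unadjusted p under 0.05, where 5.64% and 6.04% of all genes were. Those that did not reach that level were Bcl3 (log2 0.33 ± 0.17), Fgf2 (0.21 ± 0.19), Lcn2 (0.07 ± 0.52) and Timp1 (0.07 ± 0.32). The same held for Mmp9 (0.06 ± 0.26), Mmp2 (-0.005 ± 0.34), Birc5 (-0.007 ± 0.33) and Twist1 (-0.27 ± 0.70). The median log2 fold change of the list was 0.33. After adjustment 0 passed with edgeR, 4 were higher with DESeq2 (Gfap, Fos, Serpina3n and Bcl6), and 5 were higher with edgeR without the low-count filter (Junb, Fos, Serpina3n, Cebpd and Bcl6). Gfap, the intermediate filament gene of astrocytes, had 1770 to 2077 CPM in controls and 2125 to 2800 CPM after restraint, without overlap (log2 0.37 ± 0.09, edgeR adjusted p = 0.118). Cebpd, a transcription factor gene of the acute phase, had 8.56 to 17.2 and 12.9 to 43.5 CPM (log2 1.11 ± 0.27, edgeR adjusted p = 0.136), and Bcl6 had 25.4 ± 3.14 and 33.6 ± 3.88 CPM (log2 0.40 ± 0.11, edgeR adjusted p = 0.162). Gfap is also 1 of the 8 astrocyte markers whose sums are given above, and the part of astrocyte RNA in these values was not tested. Whether the 2 lists of STAT3 targets differ in their response was not tested.

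**Figure D4:**
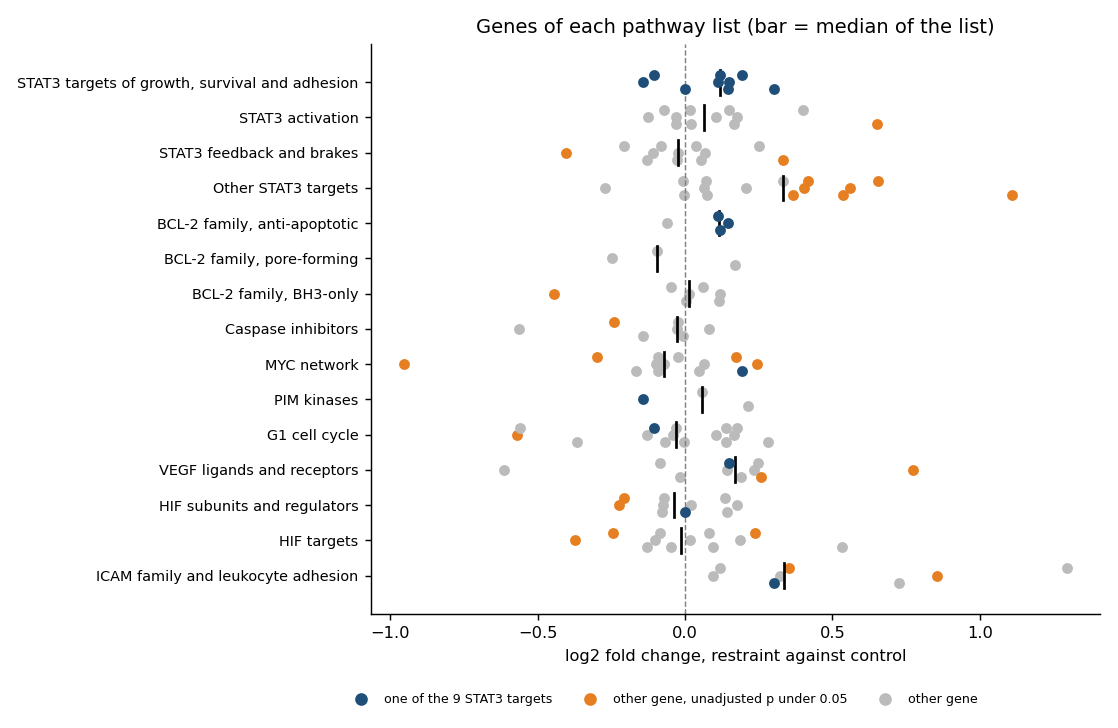
Log2 fold change after restraint (x axis) of each measured gene in the 15 pathway lists (y axis), with the 9 targets in blue, other genes with an unadjusted p under 0.05 in orange and the list median as a black bar. The blue points lie between -0.14 and 0.30, and the list of other STAT3 targets holds 7 orange points, all to the right of 0.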

How the data were processed

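Raw counts per gene and library were deposited by the authors in 1 table, from featureCounts 2.0.3 run over the exons of GENCODE M30, per the file headers. The recorded options count each mate and name no strand, so a read pair can add 2 counts and strands were not told apart, per the file headers. FastQC, Trimmomatic and STAR are named in the submitters' processing notes without versions. Those notes name mm10, whereas GENCODE M30 annotates GRCm39. The starts of 9 of 9 targets lay over 10000 bases from their RefSeq GRCm38 starts, so coordinates of genes are the table's (GRCm39) and promoter windows are RefSeq's (GRCm38.p6). Exon length is a deposited value of the same table.

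Symbols came from GENCODE M21 names, which matched 52073 of 56691 identifiers. Genes were filtered with filterByExpr (count minimum 10, total minimum 15) and scaled by TMM, and all 9 targets passed the filter. They were tested with edgeR 4.0.16 (glmQLFit and glmQLFTest) in R 4.3.3, with group as the only term and Benjamini-Hochberg adjustment over all 18440 genes. Standard errors were derived from each estimate and its F statistic. The prior count for log2 CPM was 2. The exact permutation test took the mean log2 CPM over all splits into 5 and 5, for 9 genes, without adjustment. Named genes are the 9 targets, up to 3 further genes of each of 15 lists by smallest p, the 3 genes most alike to each of 2 targets, and markers of 10 cell types. The targets and lists were chosen with earlier results of these data known. Alternatives were other normalizations, filters, tests (DESeq2 1.42.0, limma-voom of limma 3.58.1), a block for the replicate number, halved counts, removal of each library's trend with exon length (lowess, span 0.3) and leaving out each library.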

Additional observations from a re-analysis of the deposited data

Results flagged for a closer look

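Among the 18 sets of 5 values checked (9 genes in 2 groups), 1 held a library far from the rest, where chance alone marks about 1 set in 20. Vegfa stood at 38.8 CPM in restraint 1, whereas restraint 2 to 5 had 48.2 to 51.6 CPM, and the gap to the nearest was 0.738 of the range of the group. Restraint 1 was also the library that lay away from the rest in the principal component analysis.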

How the results depend on the processing

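For the 9 targets, 0 were called higher and 0 lower in each of the 22 alternatives, leaving out each library included. Of their directions only that of Hif1a, at -0.00011, turned: it was 0.00133 with RLE normalization, 0.00129 with DESeq2, 0.00250 with limma-voom and 0.0034 with a replicate block, and -0.0407 to 0.0404 when 1 library was left out. Of the other named genes, leaving out 1 library gave -0.112 to 0.0106 for Bcl2l2 (main value -0.06), -0.212 to 0.0146 for Bax (-0.09) and -0.0752 to 0.278 for Bmf (0.12). Over all genes, 1 was higher and 3 lower. The counts were 5 and 12 with library size only, 103 and 199 with every gene of at least 1 count, 139 and 192 with DESeq2, 21 and 66 with limma-voom and quality weights, 0 and 0 with robust estimation (2154 at an unadjusted p under 0.05), and 20 and 48 with the length trend removed. When 1 library was left out they ran from 0 to 9 and from 0 to 83, the highest without restraint 5. With the replicate block they were 0 and 0 (1704 at an unadjusted p under 0.05). No sign was seen that replicate numbers pair the libraries, although a weak pairing could be missed this way. Same-numbered libraries deviated with correlations of -0.164 to 0.027, and 0 of 5 control libraries correlated best with their own number. The cause of these differences was not tested. Depth limits the low genes most: with each read pair counted as 2, counting alone gives a relative error of about 8.65% for Myc and 8.21% for Icam1, against 1.33% for Bcl2l1.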

Other observations

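Over all genes tested that have a RefSeq promoter window, 904 held TTCNNNGAA in the 250 bases before a start and 11794 did not. Their median log2 fold changes after restraint were -0.00 and 0.00. At an unadjusted p under 0.05, 5.53% of the genes with the motif and 6.25% of those without it were higher after restraint. For ACGTG the same shares were 6.72% of 3019 genes with it and 6.03% of 9679 without. No test was made of these shares.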
